A study of Homo sapiens with 12 samples.

Results

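The BCL2 family of apoptosis regulators was followed through 10 genes of the deposited count table, which were taken by their symbols: the anti-apoptotic members BCL2, BCL2L1, MCL1 and BCL2A1, the effectors BAX and BAK1, and the BH3-only members BCL2L11, BBC3, PMAIP1 and BMF. They are 10 of the 46863 genes listed, and all 10 were among the 16835 genes that passed the filter on low counts. Polyadenylated RNA came from SU-DHL-4, an established cell line of the germinal centre type of diffuse large B-cell lymphoma (DLBCL), labelled as wild type. For 72 h the cells received DMSO alone, 1 µM Entospletinib (Ento), an inhibitor of the tyrosine kinase SYK, 0.01 µM AZD5153 (AZD), a bivalent BET inhibitor, or 1 µM Ento and 0.01 µM AZD together (Ento+AZD). Each of the 4 groups held 3 libraries, called biological replicates by the labels, and the comparison asks which transcripts respond to SYK inhibition, to BET inhibition and to both. A single cell line, dose and time were sequenced, so nothing here bears on other lymphomas or on protein levels.

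Members of this family decide at the outer mitochondrial membrane whether a cell enters apoptosis. The effectors BAX and BAK1 form the pores that release cytochrome c, the anti-apoptotic members hold the effectors and the BH3-only proteins in check, and the BH3-only proteins are the stress sensors that free or activate the effectors. In germinal centre lymphomas BCL2 is often joined to the immunoglobulin heavy chain locus by a translocation, and SYK signals downstream of the B-cell receptor.

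The 12 libraries held 18121993 to 24675830 counts in total. The labelled cell type was read from its markers. All 6 B cell markers passed the filter, with MS4A1 at 2479.9 ± 677 CPM with DMSO (SD, n = 3). CPM are counts scaled to the library size and its TMM factor. The T cell markers CD3D and CD2 and the monocyte marker FCGR3A had no count in any library. The T cell marker CD3E passed the filter too, at 1.32 ± 0.412 CPM with DMSO and at most 51 counts in a library. CD3G, CD14, LYZ and CSF1R held at most 7 counts in a library. The libraries of a group differed from each other. The summed level of 8 genes used as markers of dividing cells was 2178, 1985 and 3088 CPM in DMSO replicates 1, 2 and 3, and 2470.5, 1001 and 2711 CPM with Ento. With AZD it was 1944, 855 and 1780.5 CPM, and with Ento+AZD 1158, 417 and 1476 CPM. Replicate 2 was the lowest of its group in all 4 groups, close to replicate 1 with DMSO, where replicate 3 was the highest. The model held the replicate number, taken as the batch of the study's model, as a term beside the treatment group. Values without the 4 libraries numbered 2 are given where they end or add a call or move a called value by over 1.5 times.

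The sequences just before the RefSeq start of 4 members are shown, as these carry the largest decreases (BCL2A1 and BBC3), the increase seen with Ento (BCL2L11) and an effector that passed no test (BAX). Each runs 5′ to 3′ on the gene's strand over the 250 bases upstream of the start, in the build GRCh38.p14. The RefSeq start can differ from the gene start in GENCODE v44. By the latter, the window of BCL2L11 lies inside the gene, and those of BBC3 and BAX lie partly inside. The stretches are chr15:79971197-79971446 on the minus strand, chr19:47232668-47232917 on the minus strand, chr2:111120664-111120913 on the plus strand and chr19:48954625-48954874 on the plus strand. Capitals mark matches to the letters of 4 motifs searched on both strands, which were the forkhead motif GTAAACA, the CRE TGACGTCA, the AP-1 motif TGACTCA and the E-box CACGTG.
BCL2A1: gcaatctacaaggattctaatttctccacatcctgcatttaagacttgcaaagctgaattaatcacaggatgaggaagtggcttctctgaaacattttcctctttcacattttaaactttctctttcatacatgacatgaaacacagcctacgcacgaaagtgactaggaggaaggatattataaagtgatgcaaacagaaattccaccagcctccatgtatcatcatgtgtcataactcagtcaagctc
BBC3: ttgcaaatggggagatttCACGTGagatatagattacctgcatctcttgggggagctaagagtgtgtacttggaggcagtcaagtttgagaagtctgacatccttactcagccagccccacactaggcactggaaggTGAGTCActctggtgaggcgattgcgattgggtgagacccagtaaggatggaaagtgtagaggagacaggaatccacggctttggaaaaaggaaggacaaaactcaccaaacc
BCL2L11: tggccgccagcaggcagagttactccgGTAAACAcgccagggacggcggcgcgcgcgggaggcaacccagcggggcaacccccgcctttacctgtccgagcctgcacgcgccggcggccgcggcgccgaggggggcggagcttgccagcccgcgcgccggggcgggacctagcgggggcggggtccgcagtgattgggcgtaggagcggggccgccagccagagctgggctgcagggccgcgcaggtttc
BAX: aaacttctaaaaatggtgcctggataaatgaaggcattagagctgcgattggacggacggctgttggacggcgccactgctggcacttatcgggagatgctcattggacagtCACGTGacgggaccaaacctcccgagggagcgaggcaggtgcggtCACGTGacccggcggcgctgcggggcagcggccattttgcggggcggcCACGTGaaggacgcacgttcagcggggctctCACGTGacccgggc

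The window of BCL2L11 held the forkhead letters 223 to 217 bases before its start, that of BBC3 held the E-box letters 232 to 227 bases and the AP-1 letters, on the opposite strand, 113 to 107 bases before its start, and that of BAX held 4 E-boxes. No matches overlapped. Among 35116 windows of the same length in RefSeq, 2.98% held the forkhead letters, 4.2% the AP-1 letters, 6.34% the E-box letters and 1.65% the CRE letters. The windows of BCL2A1, BCL2, PMAIP1, BAK1, BCL2L1 and BMF held none of the 4 motifs, with 2 starts searched for BCL2L1 and for BMF. A match describes letters only. The window of BCL2A1 was the poorest in G and C of those found, at 38.8%, and that of BCL2L11 the richest, at 76.8%. MCL1 had no entry.

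With DMSO, the transcripts of the family spanned a wide range of levels per length, which were taken as CPM per kilobase of the union of a gene's exons in GENCODE v44. PMAIP1, which encodes the BH3-only protein NOXA, stood highest at 72.0 ± 14.3 CPM per kilobase (SD, n = 3), and MCL1 followed at 63.2 ± 4.61. The ranges of this pair overlapped. BCL2 stood at 30.7 ± 1.41 CPM per kilobase, below MCL1 in every library, and above BAX at 22.6 ± 2.65. The next group was formed by BMF at 16.9 ± 2.83, BAK1 at 16.3 ± 2.15 and BCL2L11, which encodes BIM, at 15.4 ± 1.91 CPM per kilobase, and BAX, BMF, BAK1 and BCL2L11 each overlapped the next in this order. BCL2A1 at 9.49 ± 3.15 and BCL2L1, the gene of BCL-XL, at 7.67 ± 0.890 CPM per kilobase overlapped too. BBC3, which encodes PUMA, was the lowest at 2.20 ± 0.271 CPM per kilobase, below every other member in every library. The place of BCL2 rests on the length used, since its exon union spans 12612 bases and its coding part 1005. Per kilobase of coding length BCL2 stood at 386 CPM, beside PMAIP1 at 386 and MCL1 at 371. Other places turned as well. By coding length BMF at 166 and BCL2L11 at 82.6 stood above BAX at 68.4, and BCL2L1 at 33.6 above BCL2A1 at 14.5. Per kilobase of the longest transcript MCL1 at 86.5 stood above PMAIP1 at 82.8. BBC3 was the lowest by each length.

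**Figure D1:**
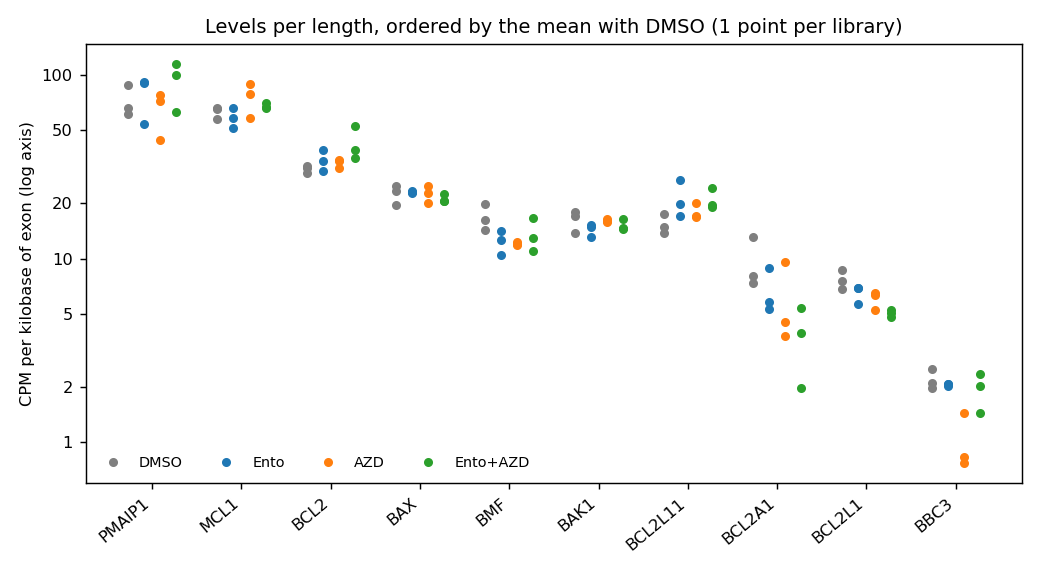
CPM per kilobase of exon (log axis) of the 10 members in each of the 12 libraries, 1 point per library and 1 colour per group, with the genes ordered by their mean with DMSO. PMAIP1 and MCL1 stand at the top with means of 72.0 and 63.2 with DMSO, and BBC3 at the bottom with a mean of 2.20, where all AZD points lie below all DMSO and all Ento points.

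A member passed the test when its adjusted p (edgeR's quasi-likelihood test, Benjamini-Hochberg adjustment over the 16835 genes) was under 0.05, and it was a differentially expressed gene (DEG) when its log2 fold change was also beyond 1 in either direction. With Ento 2 of 10 members passed, 1 up and 1 down, where 8.32% of all genes passed, 4.66% up and 3.66% down. With AZD 4 of 10 passed, all of them down, where 22.2% of all genes passed, 9.57% up and 12.7% down. With Ento+AZD 6 of 10 passed, 3 up and 3 down, where 40% of all genes passed, 19.2% up and 20.8% down. The DEGs among them were 0 members with Ento, 1 with AZD and 1 with Ento+AZD, against 1.63%, 3.19% and 8.32% of all genes. The median log2 fold change of the 10 members was −0.11 with Ento, −0.099 with AZD and −0.091 with Ento+AZD, beside 0.0094, 0.0055 and 0.010 over all genes. The 3 exposures share the DMSO libraries, so their values are set side by side only. In bulk RNA, a change in the share of cells that carry a transcript and a change in the amount per cell cannot be told apart.

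**Figure D2:**
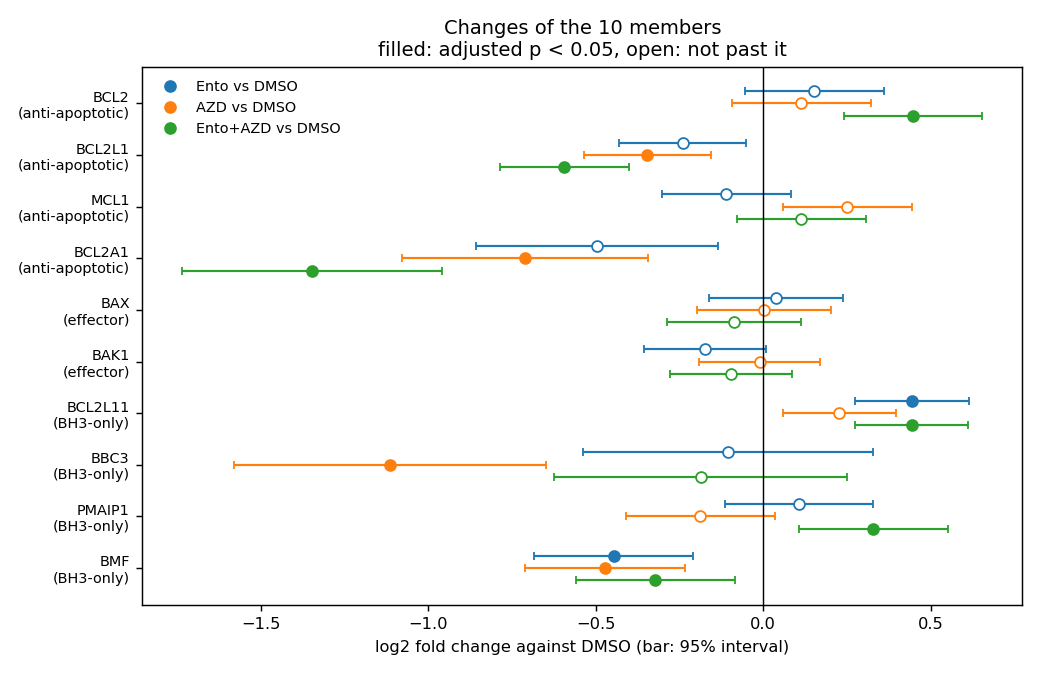
Log2 fold change of each member against DMSO, with its 95% interval, for Ento (blue), AZD (orange) and Ento+AZD (green), from 3 libraries a group. Filled points passed the test, which were 2, 4 and 6 of the 10 members, and the changes of largest size were BCL2A1 with Ento+AZD (−1.35) and BBC3 with AZD (−1.12).

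Among the anti-apoptotic members, BCL2A1 and BCL2L1 fell with Ento+AZD and BCL2 rose. BCL2A1 encodes BFL-1, a short-lived survival protein of haematopoietic cells. The gene lies at chr15:79960892-79971196 (GENCODE v44, GRCh38), and its level was 13.04, 7.97 and 7.31 CPM with DMSO, 8.87, 5.27 and 5.80 with Ento, 9.52, 4.49 and 3.77 with AZD and 5.33, 3.91 and 1.97 with Ento+AZD, for replicates 1, 2 and 3. Replicate 1 was the highest library of every group, all 3 Ento+AZD libraries lay below all 3 DMSO libraries, and the ranges with either single agent overlapped that of DMSO. Counts of this transcript were low, at 109, 82 and 35 in Ento+AZD replicates 1, 2 and 3. BCL2A1 fell by 1.35 ± 0.18 on the log2 scale with Ento+AZD (SE, adjusted p = 7.2e-05), a 2.54-fold decrease, and by 0.71 ± 0.17 with AZD (adjusted p = 0.0102). With Ento its log2 fold change was −0.50 ± 0.17 (95% interval −0.86 to −0.13, adjusted p = 0.0858), lower in all 3 replicate-numbered pairs, and it passed without the filter on low counts (adjusted p = 0.0166) and in the fit of only the groups compared (0.0389). Without the replicate block the adjusted p was 0.0501 with Ento+AZD and 0.368 with AZD, and the AZD call was also lost without AZD replicate 2 (0.0583) or 3 (0.0732).

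BCL2L1 (chr20:31664452-31723989), whose main product BCL-XL protects the mitochondria of many cell types, was measured at 36.2, 28.8 and 31.6 CPM with DMSO, 28.9, 23.7 and 29.1 with Ento, 27.2, 22.2 and 26.6 with AZD and 22.1, 21.3 and 20.3 with Ento+AZD. The Ento+AZD libraries lay below those of every other group, and the AZD libraries below those with DMSO. It fell by 0.59 ± 0.090 with Ento+AZD (adjusted p = 0.000182), a 1.51-fold decrease, and by 0.35 ± 0.089 with AZD (adjusted p = 0.0146). With Ento the log2 fold change was −0.24 ± 0.089 (95% interval −0.43 to −0.051, adjusted p = 0.109). The Ento+AZD call was kept without each of the 12 libraries and without the replicate block (adjusted p = 0.0121), whereas the AZD call was lost without the block (0.146), without AZD replicates 2 (0.0784) or 3 (0.0529) and without DMSO replicate 1 (0.0517). BCL2L1 shares 1735 bases of exon with ABALON on the opposite strand, a gene that held 5 to 31 counts per library.

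BCL2 (chr18:63123346-63320128), the founding member and the target of venetoclax, stood at 368, 402 and 392 CPM with DMSO, 427, 492 and 380.1 with Ento, 431, 436 and 392 with AZD and 446, 665 and 493 with Ento+AZD. Ento+AZD replicate 2 was the highest of the 12 libraries, and each Ento+AZD library was above each DMSO library. BCL2 rose by 0.45 ± 0.097 with Ento+AZD (adjusted p = 0.00235), a 1.36-fold increase. Its log2 fold change was 0.15 ± 0.097 with Ento (95% interval −0.054 to 0.36, adjusted p = 0.355) and 0.11 ± 0.097 with AZD (−0.093 to 0.32, adjusted p = 0.426). The rise with Ento+AZD passed without each library in turn and without the block (adjusted p = 0.0468), and was 0.29 (adjusted p = 0.0428) without the 4 libraries numbered 2.

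MCL1 (chr1:150560895-150579738), a protein of rapid turnover on which many B-cell lymphomas depend, was at 414, 361 and 406 CPM with DMSO, 411, 322 and 364 with Ento, 559.8, 366 and 492 with AZD and 441, 419 and 412 with Ento+AZD. AZD replicates 1 and 3 were the highest libraries, while AZD replicate 2 lay within the range of DMSO. No exposure moved MCL1 past the test against DMSO. The log2 fold change was −0.11 ± 0.090 with Ento (95% interval −0.30 to 0.082), 0.25 ± 0.090 with AZD (0.058 to 0.44, adjusted p = 0.0596) and 0.11 ± 0.090 with Ento+AZD (−0.079 to 0.31). The AZD value passed without AZD replicate 2 (0.37, adjusted p = 0.0219) and without the libraries numbered 2 (0.35, adjusted p = 0.0217), and also without Ento+AZD replicate 2 (0.25, adjusted p = 0.0344) and without the filter on low counts (0.25, adjusted p = 0.0174).

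**Figure D3:**
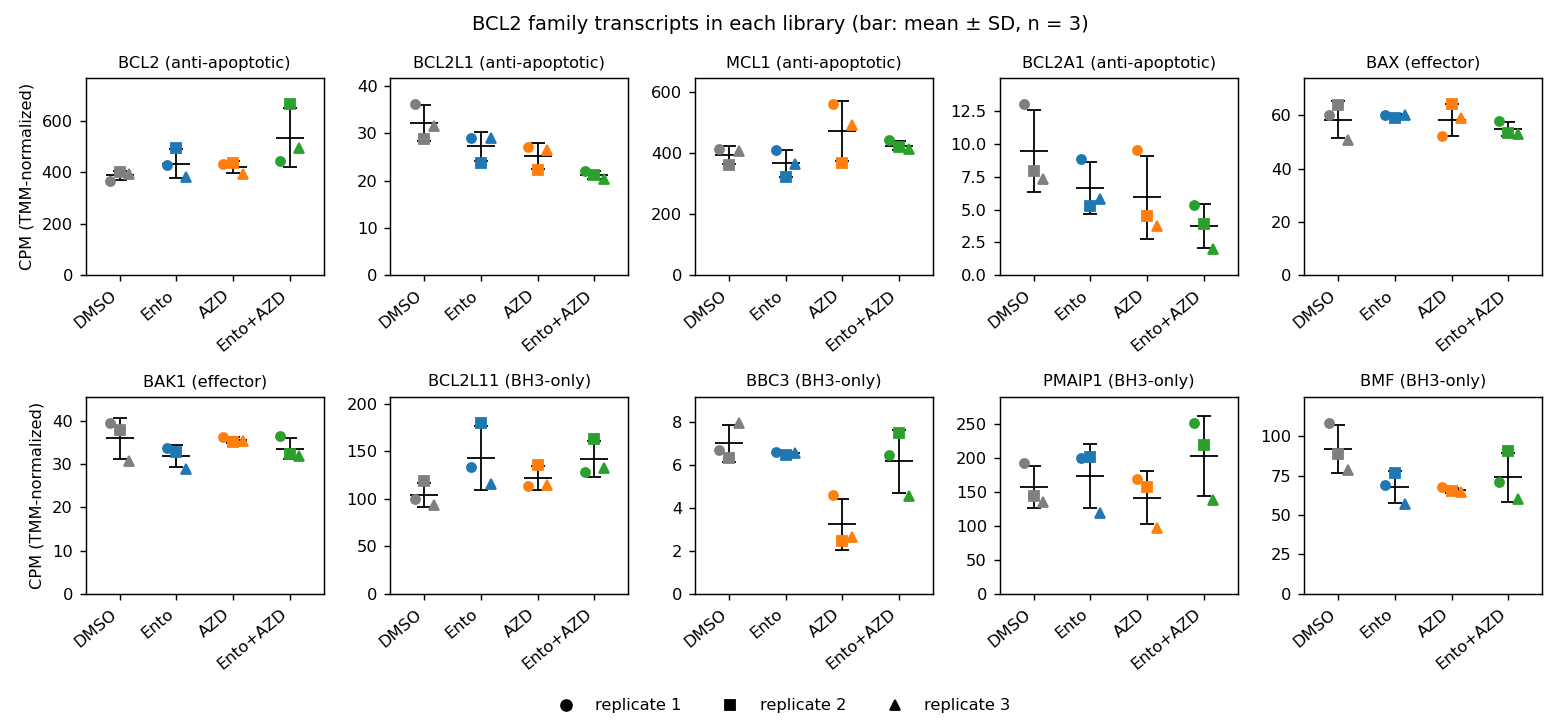
CPM of each of the 10 members in each library by treatment group, with 1 symbol per replicate number and bars for the mean and SD of 3 libraries. BCL2L1 is lowest with Ento+AZD at a mean of 21.2 CPM, BCL2L11 has its lowest mean with DMSO, BBC3 has its lowest mean with AZD, and BAX and BAK1 stay within 50.8 to 64.2 and 29.0 to 39.7 CPM.

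The transcripts of the effectors passed in none of the comparisons. BAX (chr19:48954815-48961798), which moves from the cytosol to mitochondria when activated, was at 60.3, 64.0 and 50.8 CPM with DMSO, 60.0, 59.0 and 60.2 with Ento, 52.3, 64.2 and 58.8 with AZD and 58.0, 53.4 and 53.2 with Ento+AZD. The groups overlapped throughout against DMSO. Its log2 fold change was 0.037 ± 0.093 with Ento (95% interval −0.16 to 0.24), 0.0032 ± 0.093 with AZD (−0.20 to 0.20) and −0.086 ± 0.094 with Ento+AZD (−0.29 to 0.11), with adjusted p of 0.844, 0.986 and 0.493. BAK1 (chr6:33572547-33580293), the effector that resides in the mitochondrial membrane, was at 39.7, 37.9 and 30.7 CPM with DMSO, 33.9, 32.9 and 29.0 with Ento, 36.4, 35.1 and 35.4 with AZD and 36.5, 32.4 and 32.0 with Ento+AZD. These ranges overlapped that of DMSO as well. The log2 fold change of BAK1 was −0.17 ± 0.085 with Ento (95% interval −0.36 to 0.0087), −0.011 ± 0.085 with AZD (−0.19 to 0.17) and −0.097 ± 0.085 with Ento+AZD (−0.28 to 0.086), with adjusted p of 0.226, 0.942 and 0.391. The intervals thus leave room for changes of up to about 0.29 on the log2 scale for BAX and 0.36 for BAK1. The pseudogene copy of BAK1, BAK1P1, held 97 to 196 counts per library. BAK1 counts may be uncertain for this reason, which was not tested.

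The BH3-only members moved in different directions. BCL2L11 (chr2:111119378-111168444) encodes BIM, which binds all anti-apoptotic members and is needed for the death of B cells after receptor signals. It was measured at 100.3, 118 and 93.5 CPM with DMSO, 133, 180.3 and 116 with Ento, 114, 136 and 115 with AZD and 129, 163 and 133 with Ento+AZD. Replicate 2 was the highest library of each group, every Ento+AZD library was above every DMSO library, and Ento replicate 3 fell within the DMSO range. BCL2L11 rose by 0.45 ± 0.079 with Ento (adjusted p = 0.00424) and by 0.44 ± 0.079 with Ento+AZD (adjusted p = 0.000624), a 1.36-fold increase in both. With AZD the log2 fold change was 0.23 ± 0.079 (95% interval 0.058 to 0.40, adjusted p = 0.0532), higher in all 3 pairs, and it passed without Ento replicate 2 (0.0471) or 3 (0.0396). The calls with Ento and with Ento+AZD were kept without each of the 12 libraries but lost without the replicate block (adjusted p = 0.298 with Ento and 0.079 with Ento+AZD), and the Ento call was lost without the libraries numbered 2 (0.35, adjusted p = 0.0574). MIR4435-2HG, with 14 to 112 counts per library, shares 727 bases of exon with BCL2L11 on the opposite strand.

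BBC3 (chr19:47220822-47232766) encodes PUMA, a strong activator of BAX and BAK1 that is known as a target of p53 and of forkhead factors. The libraries held 6.72, 6.32 and 7.98 CPM with DMSO, 6.60, 6.45 and 6.58 with Ento, 4.59, 2.46 and 2.66 with AZD and 6.46, 7.48 and 4.57 with Ento+AZD. All 3 AZD libraries lay below all DMSO and all Ento libraries, while the Ento+AZD libraries spread from just under AZD replicate 1 to the DMSO range. Counts of this transcript were low, at 109, 46 and 55 in AZD replicates 1, 2 and 3. BBC3 fell by 1.12 ± 0.22 with AZD (adjusted p = 0.0034), a 2.17-fold decrease and the only DEG among the members with a single agent. With Ento its log2 fold change was −0.11 ± 0.20 (95% interval −0.54 to 0.33) and with Ento+AZD −0.19 ± 0.20 (−0.63 to 0.25), with adjusted p of 0.792 and 0.496. The AZD call was kept without each library, with log2 fold changes of −1.45 to −0.90, and without the block (adjusted p = 0.0441).

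PMAIP1 (chr18:59899996-59904305), which encodes NOXA, the BH3-only partner of MCL1, was at 193, 144 and 134 CPM with DMSO, 199, 201 and 119 with Ento, 169.5, 158 and 97.0 with AZD and 252, 219 and 138 with Ento+AZD. Replicate 3 was the lowest library of every group, and the groups overlapped. PMAIP1 rose by 0.33 ± 0.10 with Ento+AZD (adjusted p = 0.021). Its log2 fold change was 0.11 ± 0.10 with Ento (95% interval −0.11 to 0.33) and −0.19 ± 0.10 with AZD (−0.41 to 0.035), with adjusted p of 0.569 and 0.211. The Ento+AZD call was lost without the block (adjusted p = 0.362), with library size alone (0.0511), with only the groups compared (0.0502), without DMSO replicate 2 (0.18, adjusted p = 0.128), Ento+AZD replicates 1 (0.095) or 2 (0.052), and without the libraries numbered 2 (0.20, adjusted p = 0.149). With AZD a decrease passed without DMSO replicate 2 (−0.33, adjusted p = 0.0167) and without the libraries numbered 2 (−0.34, adjusted p = 0.0378).

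BMF (chr15:40087890-40108892), a BH3-only protein linked to the cytoskeleton, was at 109, 88.5 and 78.4 CPM with DMSO, 69.1, 76.8 and 56.8 with Ento, 67.5, 65.3 and 64.4 with AZD and 70.6, 90.9 and 60.0 with Ento+AZD. With DMSO all 3 libraries were above those with Ento and those with AZD, and the AZD libraries were the closest to each other, whereas Ento+AZD overlapped DMSO. BMF fell by 0.45 ± 0.11 with Ento (adjusted p = 0.0242), by 0.47 ± 0.11 with AZD (adjusted p = 0.00917) and by 0.32 ± 0.11 with Ento+AZD (adjusted p = 0.0326), the last of these lower in 2 of 3 pairs. None of these calls remained without the block (adjusted p = 0.322, 0.132 and 0.192). The Ento call was lost without DMSO replicate 1 (0.0961) and without Ento replicates 1 (0.118), 2 (0.0687) or 3 (0.0887), the AZD call without AZD replicate 2 (0.0635), and the Ento+AZD call with only the groups compared (0.0709), without DMSO replicates 1 (−0.20, adjusted p = 0.182) or 3 (0.0552) and Ento+AZD replicates 1 (0.197) or 3 (0.142). Without the libraries numbered 2 the Ento+AZD value was −0.52 (adjusted p = 0.00295). BMF shares 461 bases of exon with BMF-AS1 on the opposite strand.

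Against DMSO, the libraries of the groups did not overlap for 1 member with Ento, 3 with AZD and 4 with Ento+AZD, beside 15.1%, 24.4% and 39.2% of all genes. The summed level per length of the 4 anti-apoptotic members was 117, 105 and 111 CPM per kilobase with DMSO, 116, 102 and 101 with Ento, 140.2, 103 and 120.2 with AZD and 117, 129 and 112 with Ento+AZD. That of the 4 BH3-only members was 125, 102 and 92.3 with DMSO, 126, 135 and 84.0 with Ento, 108, 105 and 74.1 with AZD and 149, 143 and 95.1 with Ento+AZD. By this exon-union length the sums overlapped between all groups, and they were given no test. MCL1 and PMAIP1, the most abundant members per length of the exon union, make up most of these sums. Both statements rest on that length. Per kilobase of coding length BCL2 stood at 386 CPM with DMSO beside MCL1 at 371, and sums by other lengths were not taken.

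The addition of AZD to Ento was read from Ento+AZD against Ento. Here 3 of 10 members passed, 1 up and 2 down, beside 20.4% of all genes (8.27% up, 12.2% down), and none was a DEG, beside 3.35%. BCL2A1 fell by 0.85 ± 0.19 (adjusted p = 0.00611) and BCL2L1 by 0.35 ± 0.091 (adjusted p = 0.0146), while BCL2 rose by 0.29 ± 0.097 (adjusted p = 0.0441). BCL2L11 had a log2 fold change of −0.0024 ± 0.079 (95% interval −0.17 to 0.17). The libraries of the pair of groups did not overlap for 3 members (BCL2L1, MCL1 and BAX), beside 23.2% of all genes. Without the block none of these calls remained (adjusted p of 0.163 to 0.302). The BCL2 call was lost with library size alone (0.0677), without the libraries numbered 2 (0.22, adjusted p = 0.164), without each Ento library (0.0832 to 0.222), AZD replicates 2 (0.0541) or 3 (0.0568) and Ento+AZD replicates 2 (0.17, adjusted p = 0.232) or 3 (0.113), and the BCL2L1 call without Ento replicates 1 (0.055) or 3 (0.0965) and Ento+AZD replicates 1 (0.0907) or 3 (0.0949).

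The addition of Ento to AZD was read from Ento+AZD against AZD. Of the 10 members 4 passed, 3 up and 1 down, beside 11.9% of all genes (5.85% up, 6.04% down), with no DEG beside 1.68%. BBC3 rose by 0.93 ± 0.22 (adjusted p = 0.0175), PMAIP1 by 0.52 ± 0.10 (adjusted p = 0.00768) and BCL2 by 0.33 ± 0.097 (adjusted p = 0.039), and BCL2A1 fell by 0.63 ± 0.19 (adjusted p = 0.043). PMAIP1 was 0.47 to 0.57 higher on the log2 scale in each of the 3 pairs, although its ranges overlapped. BCL2 and BCL2L1 were the 2 members without overlap, beside 17.1% of all genes. The PMAIP1 call was kept without each of the 12 libraries, but no call remained without the block (adjusted p of 0.218 to 0.534). The BBC3 call was lost without AZD replicates 2 (0.0936) or 3 (0.0678), Ento+AZD replicates 1 (0.055) or 2 (0.0854), and without the libraries numbered 2 (0.60, adjusted p = 0.169). The BCL2 call was lost without the libraries numbered 2 (0.19, adjusted p = 0.299), without Ento replicates 1 (0.0585) or 2 (0.0507), each AZD library (0.057 to 0.192) and Ento+AZD replicates 2 (0.21, adjusted p = 0.191) or 3 (0.0975), and the BCL2A1 call with library size alone (0.051), without Ento replicate 1 (0.0612), each AZD library (0.0589 to 0.256) and Ento+AZD replicates 1 (0.146) or 3 (0.155).

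Compared with each other, the single agents at these doses differed in 2 of 10 members, 1 up and 1 down, beside 14.7% of all genes (5.73% up, 8.99% down). BBC3 was lower with AZD than with Ento by 1.01 ± 0.22 on the log2 scale (adjusted p = 0.00706), the 1 DEG of this comparison beside 3.21% of all genes, and MCL1 was higher by 0.36 ± 0.090 (adjusted p = 0.0151). BBC3 and BAK1 were the 2 members without overlap, beside 21.5% of all genes. For BCL2L11 the difference was −0.22 ± 0.079 (95% interval −0.39 to −0.048, adjusted p = 0.082) and for PMAIP1 −0.29 ± 0.10 (−0.52 to −0.072, adjusted p = 0.073), so that neither passed. The BBC3 call was lost without AZD replicate 3 (0.0527), and that of MCL1 without the block (0.203), each Ento library (0.0516 to 0.0735) and AZD replicates 1 (0.0873) or 3 (0.0863).

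Whether the agents together did more or less than the sum of their separate changes on the log2 scale was tested by the interaction. No member passed, and 0% of the 16835 genes did by edgeR, where 1652 genes and 3 members had an unadjusted p under 0.05. DESeq2 called 8 genes and no member. The 3 members were all BH3-only. For BBC3 the sum of the single-agent changes was −1.22 and the change with both agents −0.19, an interaction of 1.03 ± 0.30 (unadjusted p = 0.00389). For BMF the sum was −0.92 against −0.32 observed, an interaction of 0.60 ± 0.16 (unadjusted p = 0.00191). For PMAIP1 the sum was −0.080 against 0.33, an interaction of 0.41 ± 0.15 (unadjusted p = 0.0142). The adjusted p was 0.444 for each of them. It passed for PMAIP1 (0.0362) and BMF (0.0429) without DMSO replicate 2, where 213 of 17260 genes passed. Without the filter on low counts it passed for BBC3 (0.00286) and BMF (0.00285), where 278 of 30891 genes passed. The smallest adjusted p of the interaction over all genes was then 7.65e-38, beside 0.444 with the filter. The anti-apoptotic members that fell stayed near the sum, with BCL2L1 at −0.59 against −0.59 (interaction −0.0070 ± 0.13, 95% interval −0.28 to 0.27) and BCL2A1 at −1.35 against −1.21 (−0.14 ± 0.25, −0.68 to 0.40). BCL2L11, which rose with Ento, had an interaction of −0.23 ± 0.11 (−0.47 to 0.0098).

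**Figure D4:**
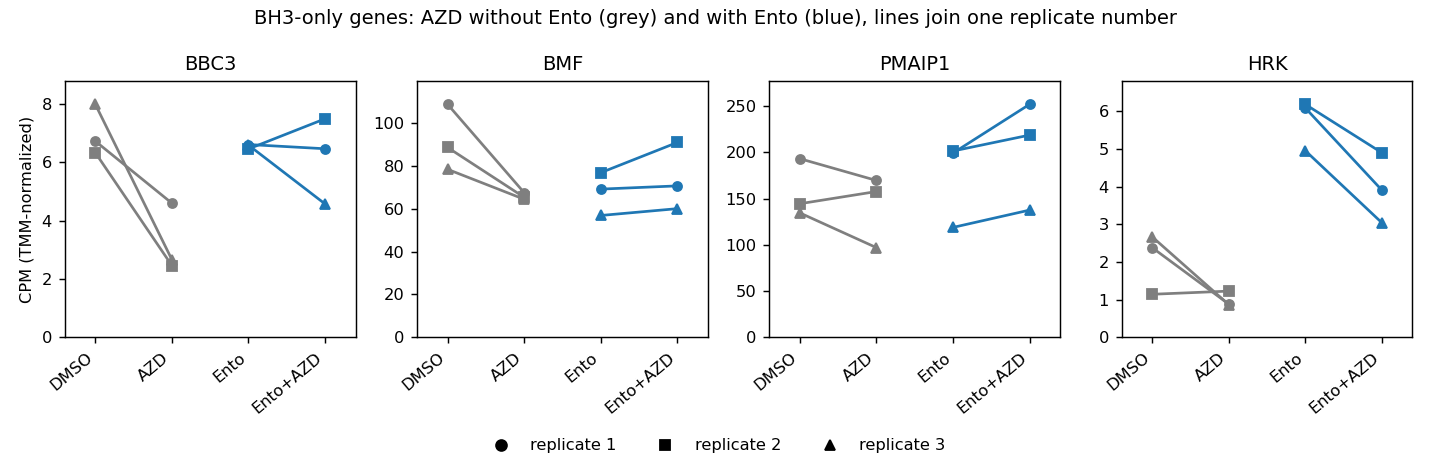
CPM of the BH3-only genes BBC3, BMF, PMAIP1 and HRK, with lines that join libraries of the same replicate number from DMSO to AZD (grey) and from Ento to Ento+AZD (blue). BBC3 and BMF are lower with AZD than with DMSO in 3 of 3 pairs, and BMF is higher with Ento+AZD than with Ento in 3 of 3 pairs, while HRK stands higher in all libraries with Ento than in those without.

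Of 13 further genes of the family, 10 passed the filter. For the genes of this and the following lists only the main fit was read. Whether their calls hold under the alternatives is not known. With Ento 1 of these rose and none fell, with AZD 1 fell, and with Ento+AZD 2 rose and 4 fell. Of all genes 8.32%, 22.2% and 40% passed in this order. The median log2 fold change of the list was −0.12, −0.037 and −0.23, beside 0.0094, 0.0055 and 0.010 over all genes. HRK, a BH3-only gene best known from neurons, was the gene that passed in each exposure. Its level was 2.38, 1.14 and 2.67 CPM with DMSO, 6.09, 6.19 and 4.96 with Ento, 0.884, 1.23 and 0.870 with AZD and 3.91, 4.90 and 3.04 with Ento+AZD. The Ento and Ento+AZD libraries all lay above the DMSO and AZD libraries. HRK rose by 1.45 ± 0.25 with Ento (adjusted p = 0.00393), fell by 1.09 ± 0.32 with AZD (adjusted p = 0.0259) and rose by 0.91 ± 0.27 with Ento+AZD (adjusted p = 0.0138), and it was 2.001 ± 0.30 higher with Ento+AZD than with AZD (adjusted p = 0.00181). Its counts were low, at 18 to 145 per library. BCL2L2, the gene of the anti-apoptotic BCL-W, rose with Ento+AZD by 0.86 ± 0.22 (adjusted p = 0.00751) from 1.08 ± 0.257 CPM with DMSO. Among the genes that fell with Ento+AZD, BNIP3, which acts in the removal of mitochondria, fell by 0.98 ± 0.28 (adjusted p = 0.0121), with 28.3, 27.0 and 97.6 CPM in the DMSO libraries, and the BH3-only genes BIK by 0.81 ± 0.23 (adjusted p = 0.0123), BID by 0.44 ± 0.091 (adjusted p = 0.00168) and BAD by 0.28 ± 0.10 (adjusted p = 0.0378). BCL2L10, BOK and BCL2L14 did not pass the filter, with at most 18 counts in a library.

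Downstream of the mitochondrial pores, 17 genes of cytochrome c release, caspases and their inhibitors were all tested. None passed with Ento, 4 rose and 3 fell with AZD, and 3 rose and 4 fell with Ento+AZD. Of all genes 8.32%, 22.2% and 40% passed in this order. The median log2 fold change of the list with Ento+AZD was −0.088 beside 0.010 over all genes. Among the genes that fell with Ento+AZD was BIRC5, which encodes survivin and acts in cell division (−1.50 ± 0.23, adjusted p = 0.000177). CASP6 (0.39 ± 0.15, adjusted p = 0.0445), DFFA, the inhibitor of the apoptotic nuclease (0.36 ± 0.096, adjusted p = 0.00917), and CASP9, the initiator caspase of the apoptosome (0.27 ± 0.093, adjusted p = 0.0314), rose. Of 5 partners at the outer mitochondrial membrane, the channels VDAC3 (−0.30 ± 0.069, adjusted p = 0.00395) and VDAC1 (−0.28 ± 0.078, adjusted p = 0.0116) fell with Ento+AZD, 1 fell with Ento and 1 rose with AZD. Of 5 genes of MCL1 protein turnover only BTRC, a substrate receptor of a ubiquitin ligase, passed with Ento+AZD, where it rose by 0.46 ± 0.087 (adjusted p = 0.000946), and with Ento by 0.54 ± 0.087 (adjusted p = 0.00199), while none of the 5 passed with AZD.

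Genes that are known to act on the transcription of BH3-only members were read beside them. Of 9 such transcription factors 1 rose with Ento, 1 rose and 3 fell with AZD, and 1 rose and 4 fell with Ento+AZD. For this list and the next, the shares of all genes that passed were 8.32%, 22.2% and 40% in this order. FOXO1, a forkhead factor held back by B-cell receptor signals, rose in each exposure, by 0.30 ± 0.074, 0.22 ± 0.074 and 0.43 ± 0.074 (adjusted p = 0.0222, 0.0475 and 0.000433). With Ento+AZD, E2F1 (−0.67 ± 0.14, adjusted p = 0.00156), FOXO4 (−0.48 ± 0.12, adjusted p = 0.00596) and ATF4 (−0.43 ± 0.083, adjusted p = 0.00112) fell. Of 12 p53 targets outside the family 3 rose and 1 fell with Ento, 2 rose and 1 fell with AZD, and 4 rose and 1 fell with Ento+AZD. CDKN1A, the cell cycle inhibitor p21, was the gene that fell with Ento+AZD (−1.89 ± 0.46, adjusted p = 0.00485). Its level with DMSO was low and uneven, at 3.52 ± 2.72 CPM (SD, n = 3), with at most 168 counts in a library. TP53INP1 (0.91 ± 0.13, adjusted p = 9.34e-05), XPC (0.83 ± 0.082, adjusted p = 1.06e-05) and ZMAT3 (0.43 ± 0.087, adjusted p = 0.00146) rose with Ento+AZD.

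Of the 8 markers of dividing cells none passed with Ento (median log2 fold change −0.38), and all 8 fell with AZD (−0.78) and with Ento+AZD (−1.49). Of all genes 4.66% rose and 3.66% fell with Ento, 9.57% and 12.7% with AZD, and 19.2% and 20.8% with Ento+AZD. The summed level of the 8 markers per library ranged from 1985 to 3088 CPM with DMSO, 1001 to 2711 with Ento, 855 to 1944 with AZD and 417 to 1476 with Ento+AZD. Of the 6 B cell markers 3 rose with Ento, 2 with AZD and 4 with Ento+AZD, and their summed level ranged from 3506 to 5615 CPM with DMSO, 4125 to 7304 with Ento, 4903 to 7214 with AZD and 5372 to 7082 with Ento+AZD. Of 5 germinal centre markers 2 rose in each exposure and 1 fell with AZD. Of 3 plasma cell markers, XBP1 rose by 1.70 ± 0.16 (adjusted p = 6.69e-06) and TNFRSF17 fell by 0.63 ± 0.18 (adjusted p = 0.0106) with Ento+AZD, while the defining marker SDC1 held at most 6 counts in a library. The T cell marker CD3E, with at most 51 counts, fell with AZD by 1.02 ± 0.30 (adjusted p = 0.0241), and the 4 monocyte markers held at most 7 counts. The part of these markers in the changes of the BCL2 family members was not tested.

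The genes whose pattern over the 12 libraries was most like that of the 3 members with the smallest adjusted p with Ento+AZD were found by Pearson's correlation of log2 CPM after removal of the replicate-number means. For BCL2A1 these were ADGRE5 (r = 0.984), TRIP10 (0.984) and C16orf87 (0.983), for BCL2L1 they were C1orf54 (0.986), DCLRE1A (0.986) and LGALS1 (0.982), and for BCL2L11 they were LOC107986361 (0.98), CYP1A2 (0.957) and CLEC18B (0.95). These are the highest values among all genes over 12 libraries that share treatments and normalization, and they are a description only.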

How the data were processed

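The members of the family and all gene lists were chosen with earlier results of these data known. Per the study's methods, polyadenylated RNA was sequenced as single reads (NEBNext Ultra II RNA kit), trimmed with CutAdapt through TrimGalore, aligned to GRCh38.p13 and counted per gene with Rsubread. The processing notes also list hg19 and bcl2fastq 2.19. The annotation release, strand setting and treatment of multiply mapped reads are not given in the sources used here. The authors deposited whole-number counts of 46863 genes in 12 libraries, which were used as they stand. They also deposited log2 CPM values of 16226 genes, which matched log2 CPM computed from the counts and entered no test.

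Genes were kept by edgeR's filterByExpr by group (minimum count 10, minimum total 15), scaled by TMM and fitted with edgeR's quasi-likelihood model (edgeR 4.0.16, limma 3.58.1, R 4.3.3) without intercept on group and replicate number, with all 12 libraries in 1 fit. Each contrast was tested by the quasi-likelihood F-test with Benjamini-Hochberg adjustment over 16835 genes. SEs were derived from the F statistics, and intervals are at 95%. The replicate number stands for the batch of the study's model. In the pairing check, the deviations of libraries from their group means correlated at 0.213 to 0.703 in all 18 pairs with the same number and at −0.627 to 0.325 in 36 pairs with different numbers. Replicates differed by more than sampling noise (chi-square per degree of freedom 9.06 to 54.1), and each was counted as 1 sample. All 10 members are described, and from each further list at most the 3 genes per direction that passed with Ento+AZD and had the largest absolute log2 fold change are named, except that any further family gene may be named with its level. Some genes that this rule would name are not reported here. Levels between genes were compared per kilobase of the exon union in GENCODE v44. DESeq2 1.42.0, other size factors, no filter on low counts, no replicate block, the compared groups alone, other lengths and each library left out in turn were tried as alternatives, and replicate numbers 1 and 3 alone were added after the data were seen. These alternatives were read for the 10 members and for counts over all genes, and not for single genes of the further lists. The script was tested on simulated data.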

Additional observations from a re-analysis of the deposited data

Results flagged for a closer look

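BMF was lower with AZD than with DMSO in 3 of 3 pairs of libraries and higher with Ento+AZD than with Ento in 3 of 3 pairs, and these opposite directions drew attention to it. The test of the difference did not pass: the interaction was 0.60 on the log2 scale, with an unadjusted p of 0.00191 and an adjusted p of 0.444 by edgeR's quasi-likelihood test. The log2 fold change of BMF for Ento+AZD against Ento was 0.12 (95% interval −0.11 to 0.36, adjusted p = 0.464), and it was −0.022 without Ento+AZD replicate 2.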

How the results depend on the processing

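Without the replicate block the members that passed numbered 0 with Ento, 1 with AZD, 2 with Ento+AZD, 0 for Ento+AZD against Ento, 0 for Ento+AZD against AZD and 1 for AZD against Ento. Of all 16835 genes 36, 326, 2398, 206, 17 and 539 passed without the block in the same order, against 1401, 3745, 6736, 3440, 2001 and 2478 with it. With each library left out in turn the counts were 1 to 2, 2 to 5, 4 to 6, 1 to 4, 1 to 4 and 0 to 3 in the same order, and 0 to 2 for the interaction. Of the 21 calls, 8 were kept without each of the 12 libraries. Replicate numbers 1 and 3 alone, a setting chosen after seeing the data, left 1 member with Ento, where 608 of 16973 genes passed, and 2 for Ento+AZD against AZD, where 1079 did. The test without the filter on low counts called 2 members and 278 of 30891 genes for the interaction. This setting gave far smaller adjusted p for like changes. For BBC3 with AZD it was 1.78e-09, beside 0.0034 in the main fit, at a log2 fold change of −1.12 in both. Passes in this setting, also those of BMF, BCL2A1, MCL1 and PMAIP1, are therefore not comparable with those of the main fit. The fit of only the groups compared called 5 members and 4428 of 16153 genes for Ento+AZD against Ento, where PMAIP1 (0.22, adjusted p = 0.0248) and MCL1 (0.22, adjusted p = 0.0347) were added, MCL1 also without the filter (adjusted p = 0.0469). PMAIP1 for Ento+AZD against Ento was also added without DMSO replicate 2 (0.0492) or 3 (0.0467). For Ento+AZD against AZD the fit of only the groups compared added BCL2L11 (0.22, adjusted p = 0.0298). For AZD against Ento, PMAIP1 was added by that fit (0.00372), without the filter (0.00908) and without DMSO replicate 2 (0.0168) or 3 (0.0197), and BCL2L11 with library size alone (0.0497) and without Ento replicate 3 (0.0401). BCL2 and MCL1 stood with DMSO at 386 and 371 CPM per kilobase of coding length and at 51.9 and 86.5 CPM per kilobase of the longest transcript.

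Directions that turned were those of values that had not passed. For BAX with AZD the log2 fold change was −0.00051 by DESeq2, −0.00049 with RLE size factors, −0.054 with library size alone, −0.0015 without the filter and −0.0072 in replicate numbers 1 and 3 alone. Library size alone gave interactions of 0.032 for BCL2L1 and 0.013 for MCL1. In replicate numbers 1 and 3 alone the values were −0.080 for PMAIP1 with Ento, 0.029 for BAK1 with AZD, 0.071 for BCL2L11 against Ento, −0.022 for BMF against AZD, and 0.028 for BCL2 and 0.075 for BMF in AZD against Ento. Without single libraries, BAX ranged from −0.060 to 0.092 with Ento, from −0.086 to 0.10 with AZD and from −0.089 to 0.066 in AZD against Ento. BBC3 ranged from −0.23 to 0.11 with Ento, from −0.43 to 0.018 with Ento+AZD and from −0.33 to 0.10 in Ento+AZD against Ento. PMAIP1 ranged from −0.041 to 0.25 with Ento and BAK1 from −0.084 to 0.035 with AZD. In Ento+AZD against Ento, BCL2L11 ranged from −0.090 to 0.082 and BMF from −0.022 to 0.21. In AZD against Ento, BCL2 ranged from −0.12 to 0.030 and BMF from −0.13 to 0.058. The interactions ranged from −0.10 to 0.046 for BCL2L1, from −0.15 to 0.052 for MCL1 and from −0.34 to 0.045 for BCL2A1. Library size alone moved the share of rises among all calls from 56% to 45.3% with Ento and from 43% to 29.6% with AZD. The cause of these shifts was not tested.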
